A study of Caenorhabditis elegans with 2 samples.

Results

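Sites bound by DPL-1 were mapped with ChIP-seq (sequencing of immunoprecipitated chromatin) in L1 larvae, the first larval stage of the nematode Caenorhabditis elegans, and the peaks described here are those between protein-coding genes on the autosomes. A peak of the authors' list that passed the irreproducible discovery rate (IDR) threshold was counted as intergenic when its summit met 3 conditions. It lay outside every window from 500 bp upstream to 200 bp downstream of a protein-coding transcript start, outside every exon and gene body of a protein-coding gene, and over 200 bp from any tRNA, snoRNA, snRNA or rRNA gene. Of 3726 IDR peaks on build ce11, 3330 were autosomal and 700 met the rule. Left out were 134 intergenic peaks on chromosome X and 68 autosomal ones beside small RNA genes. All samples belonged to 1 group of 2 biological replicates of strain YL448, genotype unc-119(ed3)III; vrIs83, as whole larvae of both sexes whose age was given as unknown. The transgene vrIs83 (pGES-1::DPL-1::GFP FLAG with unc-119(+)) expressed tagged DPL-1 from the ges-1 promoter, which is active in the intestine, while the antibody label named dpl-1. Native DPL-1 of every tissue and the tagged intestinal protein therefore cannot be told apart. No condition was compared with another. The comparisons below set the 700 intergenic peaks against 2063 autosomal promoter peaks of the same list, or against the 23.2 Mb of autosomal sequence in which a summit would have met the rule, called open sequence here. Since the peaks of 1 experiment do not replicate one another, a p-value here speaks of these lists only.

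DPL-1 is the DP protein of the worm. It pairs with E2F proteins such as EFL-1, binds sites of the E2F type, and is part of the DREAM complex, which holds cell cycle and germline genes repressed. In DREAM a second DNA-binding subunit, LIN-54, recognises the CHR element, the cell cycle genes homology region, and the complex is best known from promoters. GATA-type sites are bound by ELT-2 and related factors of the worm intestine. GA repeats are known in Drosophila as the site of the GAGA factor, which opens chromatin, and they recur in worm regulatory DNA. E-boxes are sites of basic helix-loop-helix proteins.

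The strings that carry the results are shown first, each in at most 30 bases from strong peaks on chromosomes II to V that held it, read 5′ to 3′ on the strand of the string, from build ce11. The first 4 hold an E2F string together with a CHR string, both in capitals. They lay at V:2600757-2600785, III:7498637-7498666, III:5190349-5190378 and III:12528234-12528262.
F53E10.5 peak: agccTTTCGCGCgcattaaTTTGAAgtct
C07H6.9 peak: tTTTGAAttaccgccattttgTTTCGCGCg
hira-1 peak: tacatttaTTTGAATTTCGCGCgaaaatga
aakg-1 peak: atTTTGCCGCgaattctttctTTCGAAaa
The gap between the strings was 7, 14, 0 and 11 bases in the order shown. The next 4 hold a GA repeat, in capitals, and come from IV:14959667-14959696, III:2966672-2966701, III:4087803-4087832 and IV:3384786-3384815. They show that further GA dinucleotides often flanked the counted string.
Y41E3.1 peak: tgctagaaagatGAGAGAcgcagagagtgt
H05C05.2 peak: agagagagccgaGAGAGAaaaagagaagct
kin-19 peak: atgcgagagaacGAGAGAaaacgacgagtc
B0546.4 peak: gagagaaagtgcGAGAGAgtacacgaaacg
The last 3 hold a string of 7 bases found by a search made after the data were seen, an E-box and a GATA-type string, at IV:10697754-10697782, IV:6336847-6336876 and III:12152332-12152361.
allo-1 peak: ggaattgaagaGACGCAGgcaggcagaca
ipla-6 peak: cccagacaagacCACGTGcttttcggttta
Y75B8A.7 peak: aacgcgccctgtTGATAAaacagacagtat
In the Y41E3.1 peak the GA repeat ran straight into the 7-base string, so that both counted as present there.

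Intergenic peaks were weaker than promoter peaks. Their pooled signal, the authors' value per peak on a scale the files do not state, ran from 39.6 to 2782 with a median of 69.5 (quartiles 50.5 and 118). Autosomal promoter peaks had a median of 147 (quartiles 70.4 and 421) and intronic peaks, 449 in all, a median of 66.2. Of the intergenic peaks 244 (34.9%) were among the 1863 stronger peaks of the IDR list, against 64.2% of promoter peaks, and 25 were among its strongest 500, against 458 promoter peaks. These are values on which the IDR list itself was chosen, so they are given as a description.

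Most intergenic peaks had a match in each replicate's list of 30000 entries, which include background, and weak peaks had one less often. Fewer had one when only the strongest entries of replicate 2 were counted, as given further below. A summit of replicate 1 lay within 100 bp of 695 of the 700 summits (99.3%, against 99.6% of all autosomal IDR peaks). For replicate 2 it was 584 (83.4%, 95% exact interval 80.5 to 86.1%), against 1889 of 2063 promoter peaks (91.6%, 90.3 to 92.7%) and 87.9% of all autosomal IDR peaks. Intronic peaks had 78.8%, below the intergenic share. The odds ratio of intergenic to promoter peaks was 0.464 (0.358 to 0.603, adjusted p = 2.8e-08, two-sided Fisher's exact test with Benjamini-Hochberg adjustment over 7 shares). Among the 1863 weaker IDR peaks, a split added once the data had been seen, the shares were 77.2% of intergenic and 78.5% of promoter peaks, with an odds ratio of 0.930 (adjusted exact p = 0.86). Among the 1863 stronger ones they were 95.1 and 98.9%, with an odds ratio of 0.221 (adjusted exact p = 0.0011). Signal and class moved together, and the split did not match the 2 classes for signal on either side. In narrower classes of signal the shares lay closer. Below 60, from 60 to 100, 100 to 200, 200 to 400 and 400 up, intergenic peaks had 72.3, 84.7, 93.6, 98.4 and 100%. Promoter peaks had 71.0, 87.6, 96.7, 100 and 100% in the same order. In 4 groups of 175 intergenic peaks, from the strongest to the weakest, the share matched in replicate 2 was 98.9, 86.3, 79.4 and 69.1%. A stricter match counted only as many of the strongest peaks of a replicate as the IDR list holds. By it 407 of the 700 intergenic peaks (58.1%) matched in replicate 2, against 79.7% of promoter and 59.0% of intronic peaks. The odds ratio of intergenic to promoter peaks was then 0.354 (adjusted p = 7.9e-27, Fisher's exact test). In replicate 1 the stricter match held for 656 (93.7%), against 97.2% of promoter peaks. Across the 582 intergenic peaks with a match in each full list, Pearson's r of the log2 signals was 0.813 and Spearman's rho was 0.688. All these points come from the same pair of libraries, and the IDR list was made from them. Signal in replicate 1 was 6.00 times that in replicate 2 at the median intergenic peak (10th to 90th percentile 3.27 to 12.6), against 5.16 times at promoter peaks. These values come from separate lists of unstated scale, and the part of each replicate in the pooled signal was not tested. No depth was given in the lists, so the depth behind each value is unknown.

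**Figure D1:**
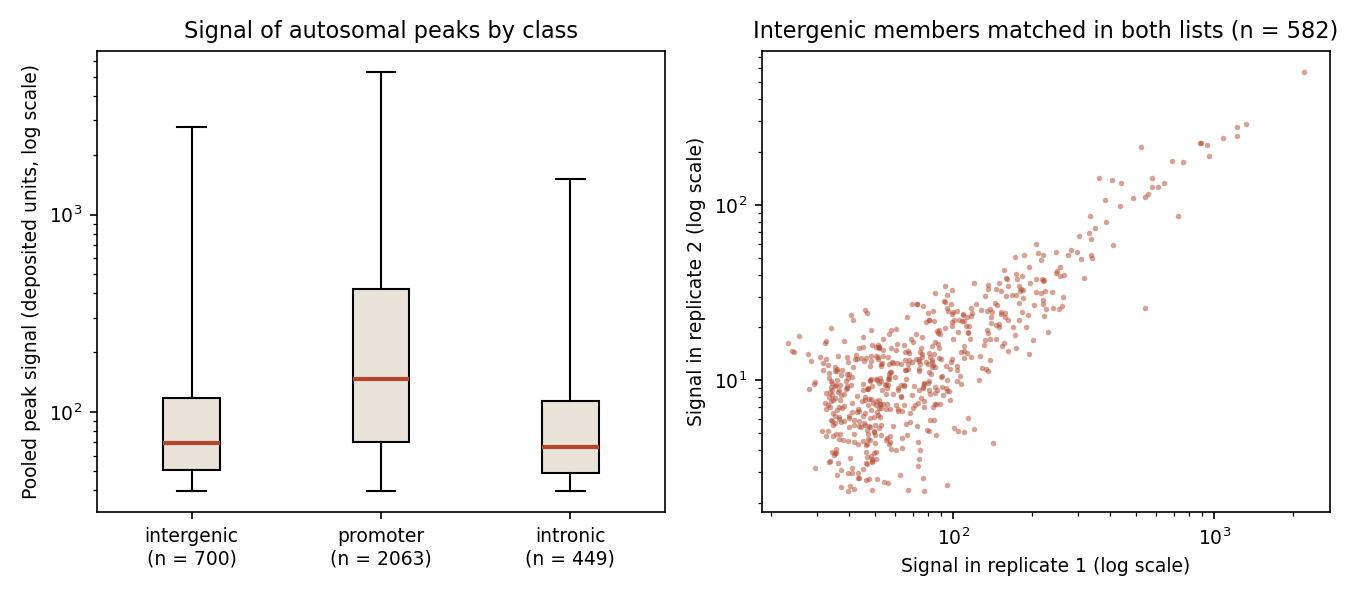
Left, pooled signal of intergenic, promoter and intronic autosomal peaks on a log axis (line, median; box, quartiles; whiskers, lowest and highest). Right, signal in replicate 1 against replicate 2, both on log axes, for the 582 intergenic peaks matched in both lists, with weak peaks scattered more widely than strong ones.

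The strongest intergenic peak lay between the 3′ ends of nlp-40, which codes for a peptide that the intestine releases to time defecation, and rcor-1, a CoREST-type corepressor gene. It spanned I:16856-17195 and had a signal of 2782, rank 20 of the whole list, with 2207 in replicate 1 and 573 in replicate 2. The nearest protein-coding start was that of nlp-40, 1918 bp away, with the summit on its transcribed side and past its end. The peak held both a GA repeat and the 7-base string, and no E2F or CHR string. The second, at II:6061551-6061858 (signal 1604, rank 84), lay 173 bp upstream of the annotated start of the pseudogene R12C12.8 and 5473 bp from the nearest protein-coding start, H12I13.1. Its signal was 1322 in replicate 1 and 288 in replicate 2.

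Next came the F53E10.5 peak at V:2600573-2600940 (signal 1499, rank 100), 1805 bp upstream of the start, with 1224 in replicate 1 and 278 in replicate 2. The peak at V:10536895-10537230 had a signal of 1465 and lay 688 bp upstream of ppm-1.A, a protein phosphatase gene, and 38 bp beyond the noncoding gene F25D1.10. The cpn-3 peak at I:3987161-3987456 (signal 1325), 640 bp upstream of this calponin-like gene, held an E2F and a CHR string, as did that at III:7498467-7498780 (signal 1150) between C07H6.9 and cgh-1, a gene for a DEAD-box helicase of P granules and P bodies.

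The 20 strongest intergenic peaks had overall ranks from 20 to 375. Their nearest genes with a known product included ahcy-1, S-adenosylhomocysteine hydrolase (signal 930, 1117 bp upstream), hira-1, a histone chaperone (770, 732 bp upstream), dhhc-4, a palmitoyltransferase (735, 530 bp upstream), wrm-1, a beta-catenin (719, 794 bp upstream), and eel-1, a ubiquitin ligase (691, 587 bp upstream). All 20 had a match in both replicates. The eel-1 peak stood apart in replicate 2, with a signal of 26.0 there against 545 in replicate 1, while its neighbours in rank, gid-8 and H05C05.2, had 125.9 and 115.7 in replicate 2. Its summit window was 100% lower case in the reference, which marks repeats. An overlapping eel-1 peak, 806 bp upstream, had a signal of 266 (211 in replicate 1 and 53.2 in replicate 2). A pair of peaks lay far upstream of cki-1, a cyclin-dependent kinase inhibitor that keeps cells out of the cycle. The stronger, at II:7807009-7807230, was 4121 bp upstream, held an E2F string, and had a signal of 241 (188 in replicate 1 and 51.7 in replicate 2). The weaker, 4985 bp upstream, had a signal of 74.4. Both lay in the 16917 bp between glr-4 and cki-1.

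Intergenic peaks gathered upstream of genes, in the stretch beyond the promoter window. The median distance from summit to nearest protein-coding start was 1450 bp (quartiles 846 and 2642 bp), against 2193 bp over the open sequence (1192 and 3912 bp). In all, 569 of 700 summits (81.3%, 78.2 to 84.1%) lay on the upstream side of that start, against 69.3% of open sequence. Per Mb of open sequence there were 59.0 peaks at 500 to 750 bp upstream, 46.03 at 750 to 1000 bp, 49.3 at 1000 to 1500 bp, 33.9 at 1500 to 2000 bp, 30.5 at 2000 to 3000 bp, 20.6 at 3000 to 5000 bp and 14.2 beyond 5000 bp. On the downstream side the density was 39.2 per Mb up to 500 bp (5 peaks) and 33.96 at 500 to 750 bp (8 peaks), and from 750 bp outward it was between 13.97 and 20.4 per Mb in every distance range. Beyond 5000 bp lay 58 peaks (8.29%), against 16.6% of open sequence, and the farthest was 16599 bp away. That peak, the aakg-1 one shown above (signal 600), lay 74 bp upstream of the pseudogene Y111B2A.25.

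Peaks of similar median signal lay on either side of the upstream limit of 500 bp, with fewer just outside it. Density per Mb was not computed across the limit, and the counts below do not cover like sequence. Inside the limit a summit counted as a promoter peak even in an exon or gene body or beside a small RNA gene. Outside it the rule removed such summits. The part of this in the lower count was not tested. There were 49 intergenic peaks in the 100 bp just outside the limit (median signal 109) and 120 promoter peaks whose nearest start put them in the 100 bp just inside it (median signal 117). Just outside the window were the peaks of gdh-1 (signal 52.9), ubql-1 (509 bp, 394), copd-1 (514 bp, 92.4), hrpr-1 (521 bp, 128) and asd-1 (524 bp, 86.5). Just inside it were those of K12H4.5 (500 bp, 885), smo-1 (500 bp, 770), ksr-2 (500 bp, 56.5), C36A4.4 (497 bp, 59.4) and usp-46 (496 bp, 145).

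Peaks were sparse between convergent genes, where only transcript ends face the gap. Such gaps held 45 peaks (6.43%, 4.73 to 8.51%), against 14.8% of open sequence. Gaps between divergent genes held 256 (36.6%, 33.0 to 40.3%), against 30.9%, and gaps between genes in tandem held 399 (57.0%, 53.2 to 60.7%), against 54.3%. Median signal was 74.8 in convergent, 71.4 in divergent and 68.9 in tandem gaps, all close to that of the 700. Most gaps that held a peak held a single one, 505 in number, while 57 held 2, 16 held 3, 7 held 4 and 1 held 5. The gap with 5 lay between lpin-1, a lipin of fat metabolism, and letm-1, with signals from 65.0 to 361.

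**Figure D2:**
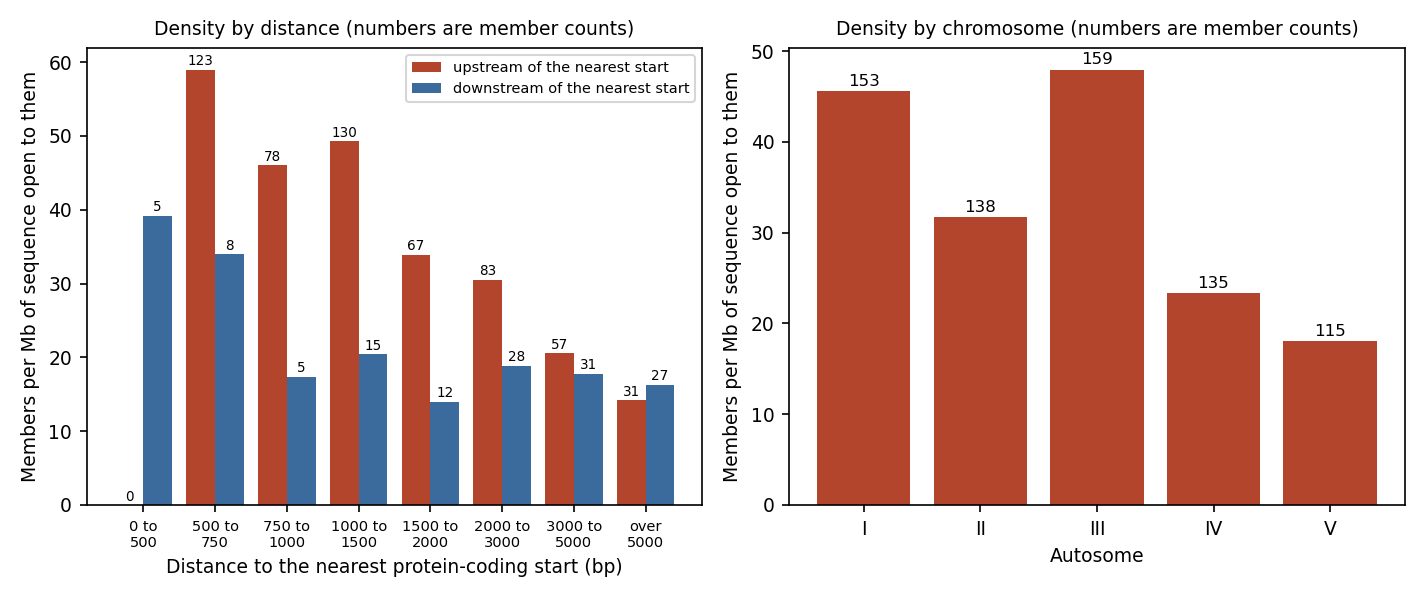
Intergenic peaks per Mb of open sequence, left by distance on the upstream and downstream side of the nearest protein-coding start and right by autosome, with the number of peaks above each bar. Upstream density falls with distance to the level of the downstream side, and chromosomes III and I have the highest densities.

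By chromosome, density was 48.0 peaks per Mb of open sequence on III (159 peaks), 45.5 on I (153), 31.7 on II (138), 23.3 on IV (135) and 18.1 on V. Chromosome III thus had 22.7% of the peaks (19.7 to 26.0%) with 14.3% of the open sequence, and V had 16.4% (13.8 to 19.4%) with 27.5%. Promoter peaks were spread in a like way, with 22.0% on III and 18.4% on V. The central 50% of each chromosome by length, where conserved genes are dense, held 56.4% of intergenic peaks and 47.3% of open sequence.

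The gene nearest to an intergenic peak had a bound promoter more often than the gene nearest to open sequence, and about as often as any gene. The gene with the nearest start had an IDR summit in its own promoter for 106 peaks (15.1%, 12.6 to 18.02%), while 15.3% of the 17242 autosomal protein-coding genes had one. Over open sequence the nearest gene was bound for 7.69% of positions. In the 4 groups by signal the share was 17.7, 17.7, 13.7 and 11.4%, from the strongest.

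GA repeats marked more intergenic summits than any other string searched for by plan. Either strand was searched up to 50 bp from the summit, and likewise 224798 windows of the same length that tile the open sequence. GAGAGA lay at 280 of 700 intergenic summits (40.0%, 36.3 to 43.7%), against 404 of 2063 promoter summits (19.6%, 17.9 to 21.4%) and 5.53% of open windows. The odds ratio was 2.74 (2.26 to 3.31, adjusted p = 8.3e-25 by Fisher's exact test). It was 1.75 among the 1863 weaker IDR peaks (39.9 against 27.5%, adjusted exact p = 7.4e-05). Intronic peaks had 30.96%. Windows centred 500 bp to the lower and higher coordinate of the intergenic summits had 6.57 and 6.43%. Peaks with the repeat had a median signal of 72.2 and those without it 68.0, and 84.3 and 82.9% of them had a match in replicate 2. In the 4 groups by signal, from the strongest, 41.1, 43.4, 39.4 and 36% held it. At promoters the share was lower in stronger peaks: 28.7% below a signal of 60, 25.8% from 60 to 100, 22.7% from 100 to 200, 13.4% from 200 to 400 and 9.74% from 400 up. The same signal classes of intergenic peaks had 37.1, 42.3, 44.8, 41.3 and 26.7%, the last of 30 peaks. The longest run of GA was 7 bases at the median intergenic peak with one, and 55 intergenic peaks (7.86%) had a run of 10 bases or more, against 23 promoter peaks (1.11%). The longest, 66 bases near tric-1B.1, belonged to a peak of signal 45.98 (34.6 in replicate 1 and 7.72 in replicate 2). How well reads map across such runs was not tested.

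**Figure D3:**
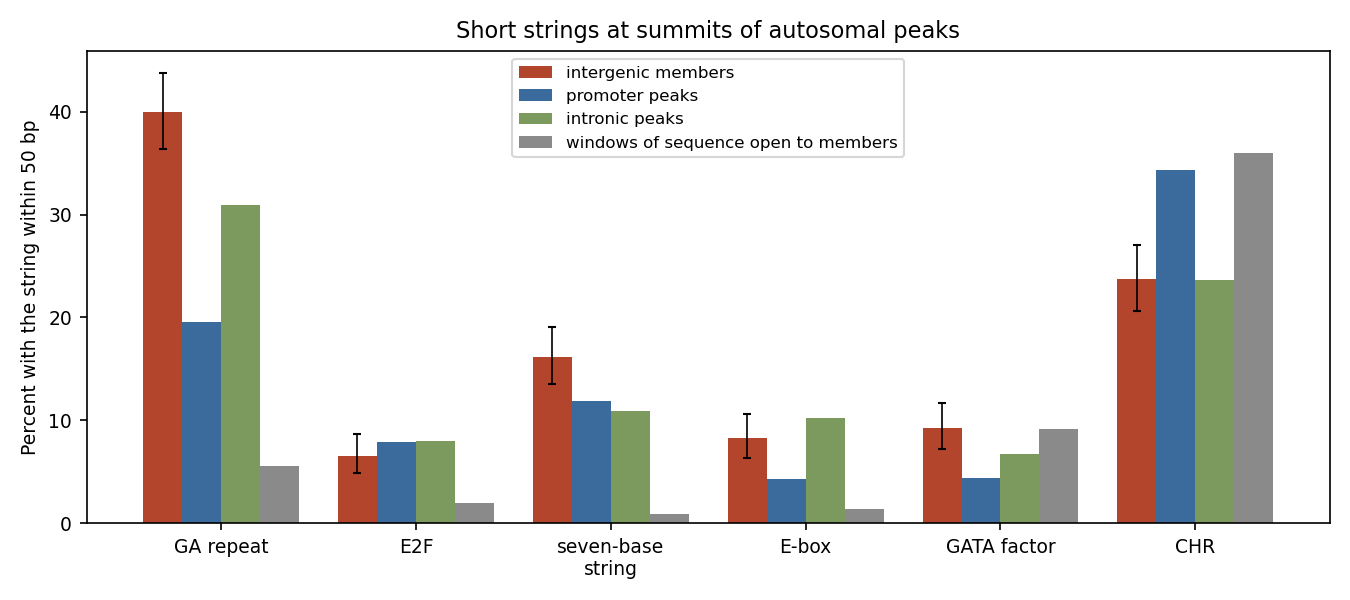
Percent of intergenic, promoter and intronic autosomal peaks, and of windows of open sequence, that hold each string within 50 bp of the summit, with 95% exact intervals on the intergenic peaks. The GA repeat is at 40.0% of intergenic and 19.6% of promoter peaks, and CHR strings are the only ones shown that are less common at intergenic peaks than in open windows.

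E2F strings, the site type of the E2F-DP pair itself, lay at few intergenic summits but at more of them than in the sequence to either side. TTTCCCGC, TTTGGCGC, TTTCGCGC or TTTGCCGC lay at 46 intergenic summits (6.57%, 4.85 to 8.67%), against 163 promoter summits (7.90%, 6.77 to 9.15%), 1.99% of open windows, and 2.71 and 2.14% of the windows 500 bp to either side. The odds ratio between classes was 0.820 (0.571 to 1.16, adjusted p = 0.33 by Fisher's exact test), an interval that holds differences in either direction, and among the 1863 stronger IDR peaks it was 1.08 (adjusted exact p = 0.72). Peaks with an E2F string had a median signal of 102, against 68.8 without one, and 25 of the 46 were among the 1863 stronger IDR peaks. The share was 16.7% of the 30 intergenic peaks with a signal of 400 or more and 3.75% of the 267 below 60. At promoters these were 13.7 and 4.70%. An E2F and a CHR string lay together at 18 intergenic summits (2.57%), against 86 promoter summits (4.17%) and 0.855% of open windows. Of the 18, 13 were among the stronger IDR peaks. A CHR string lay at 39.1% of the 46 intergenic summits with an E2F string, and at 52.8% of the 163 such promoter summits. Of 4467 open windows with an E2F string 1923 held both, and 35.9% of all open windows held a CHR string. At intergenic summits the CHR share beside E2F strings was thus near that of open windows.

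Genes nearest to the strong E2F-string peaks, beside those already given, were tkt-1, transketolase (signal 399, 688 bp upstream), pqn-42 (382), glo-4, a guanine nucleotide exchange factor of gut granules (353, 564 bp upstream), hum-1, a myosin (260), sup-46 (254), K12G11.6 (248), T04C9.2 (213) and cars-1, a cysteinyl-tRNA synthetase (190). One more stood at lin-9, a core DREAM subunit. This peak at III:8899815-8899967 (signal 209, with 175 in replicate 1 and 30.7 in replicate 2) lay 4237 bp from the lin-9 start and past the end of that gene, facing asna-1.

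CHR strings, TTTGAA or TTCGAA, were common at the strongest peaks and below the level of open sequence at weaker ones. Over all intergenic summits 166 held one (23.7%, 20.6 to 27.04%), against 708 promoter summits (34.3%, 32.3 to 36.4%, odds ratio 0.595, 0.486 to 0.727, adjusted p = 3.0e-07 by Fisher's exact test) and 35.9% of open windows. Among the 1863 weaker IDR peaks the odds ratio was 0.806 (19.1 against 22.6%, adjusted exact p = 0.39). Intronic summits of all signals had 23.6%, so the low share was not particular to intergenic peaks. From the weakest to the strongest signal class the intergenic share was 18.4, 20.9, 25.6, 26.98 and 76.7%, and the promoter share 20.9, 25, 25.7, 30.7 and 59.9%. Thus 23 of the 30 intergenic peaks with a signal of 400 or more held a CHR string. Base composition differed between summits and open sequence: GC made up 45.1% of the windows at intergenic summits and 45.3% at promoter summits, against 34.2% of open sequence, and CHR strings are rich in A and T. Bases in lower case in the reference, which mark repeats, were 22.1% of intergenic summit windows, 25.7% of promoter ones and 41.4% of open sequence. The part of composition in the differences between summits and open windows was not tested.

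**Figure D4:**
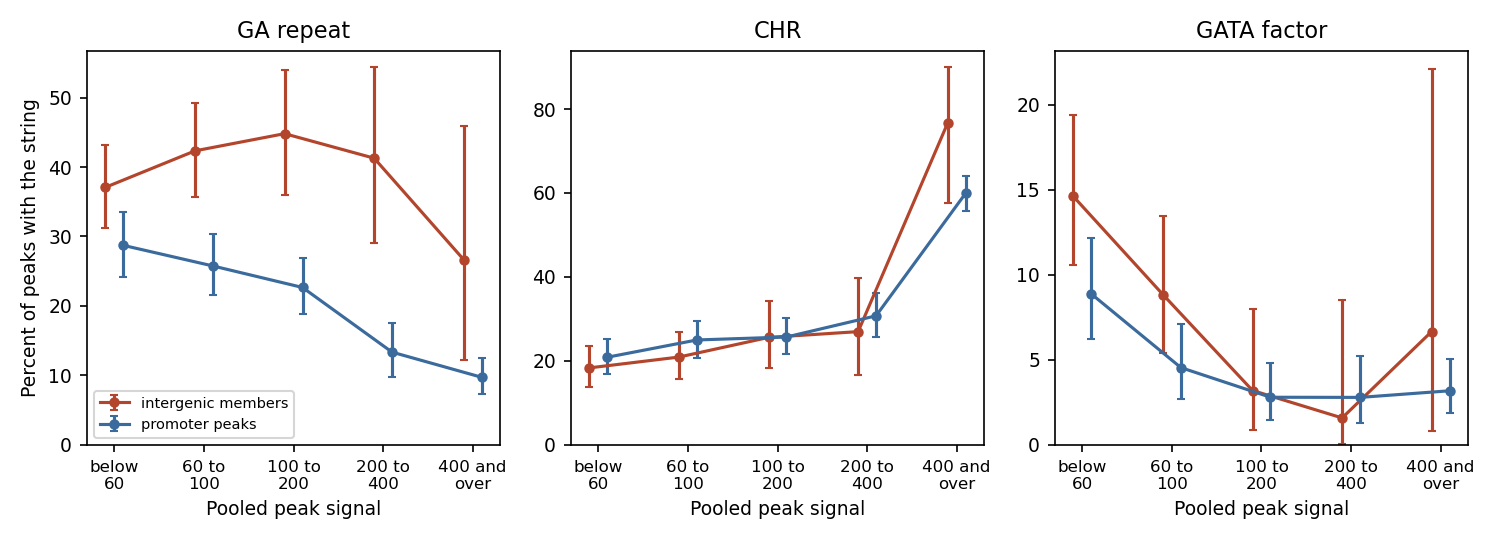
Percent of intergenic and promoter autosomal peaks with a GA repeat, a CHR string or a GATA-type string within 50 bp of the summit, by class of pooled signal, with 95% exact intervals. GA repeats stay near 40% at intergenic peaks up to a signal of 400 and fall with signal at promoters, CHR strings climb to 76.7 and 59.9% in the top class, and GATA-type strings are most common in the weakest class.

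GATA-type strings were most common at weak peaks. TGATAA lay at 65 intergenic summits (9.29%, 7.24 to 11.7%), against 90 promoter summits (4.36%, 3.52 to 5.34%, odds ratio 2.24, 1.58 to 3.16, adjusted p = 6.6e-06 by Fisher's exact test) and 9.11% of open windows, so the intergenic share was close to the background. Among the 1863 stronger IDR peaks it was 3.28% of intergenic and 2.94% of promoter peaks (odds ratio 1.12, adjusted exact p = 0.72). Peaks with the string had a median signal of 54.1, against 73.4 without it, and 72.3% of them had a match in replicate 2, against 84.6%. Of the 65, 39 had a signal below 60. Above a signal of 400 there were 2 with the string, Y75B8A.7, shown above (1145), and ahcy-1 (930). The B box of Pol III genes, GTTCGANNC, lay at 6 intergenic summits (0.857%), 9 promoter summits (0.436%, odds ratio 1.97, 0.576 to 6.23, adjusted exact p = 0.32) and 0.731% of open windows. The string upstream of piRNA genes, CTGTTTCA, lay at 2 intergenic summits (0.286%), 3 promoter summits (0.145%, odds ratio 1.97, 0.164 to 17.2, adjusted exact p = 0.61) and 1.57% of open windows.

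A search over all 2080 strings of 6 bases, made after the data were seen and given with no test, put an overlapping family around the 7-base string GACGCAG at the top. Among the 561 strings at 5% or more of intergenic summits, AGACGC had the highest ratio to open windows (21.1 against 1.92%, with 15.0% at promoter summits). ACGCAG (20.4 against 1.95%) and CGTCTC (26.0 against 2.56%) followed. GACGCAG itself was at 113 intergenic summits (16.1%, 13.5 to 19.1%), 11.9% of promoter and 10.9% of intronic summits, and 0.859% of open windows, and 77 of the 113 also held a GA repeat. These 113 had a median signal of 82.6, against 68.0 for the rest, and 92.0% of them had a match in replicate 2, against 81.8%. The E-box CACGTG was at 58 intergenic summits (8.29%), 4.27% of promoter and 10.2% of intronic summits, and 1.4% of open windows. The string ACGCGC showed the reverse order, at 61 intergenic summits (8.71%) and 20.99% of promoter summits, with 1.28% of open windows. In total 351 intergenic summits (50.1%) held a GA repeat, the 7-base string or an E2F string, against 32.2% of promoter summits and 7.97% of open windows. None of the strings named here was found at 153 intergenic summits (21.9%), whose median signal was 61.8. The strings named include some picked from these same summits. The like share was not computed for promoter summits or open windows, so 21.9% cannot be called low or high.

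**Figure D5:**
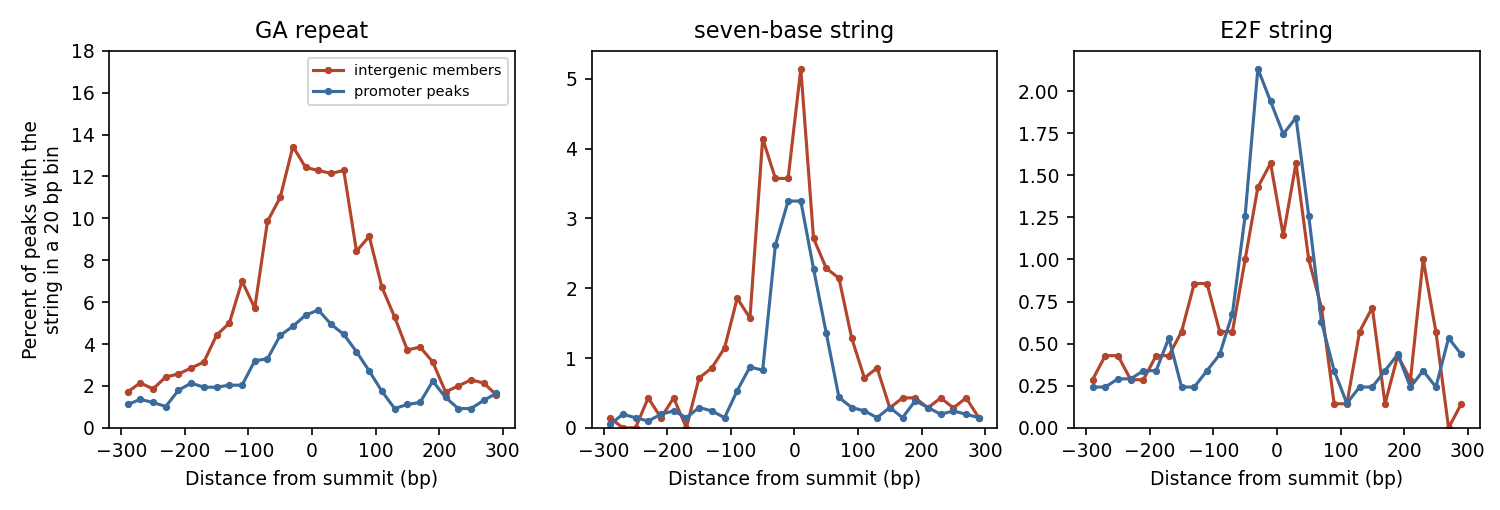
Percent of intergenic and promoter autosomal peaks with a GA repeat, the 7-base string or an E2F string in each 20 bp bin by distance from the summit, on axes of different height. All 3 are centred on the summit in both classes, and the GA repeat, at up to 13.4% of intergenic peaks per bin, is spread over a wider stretch than the E2F string.

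Annotated noncoding genes accounted for a minority of intergenic peaks. A summit lay within a gene of the ncRNA class of the annotation for 52 peaks (7.43%, 5.60 to 9.63%), against 1.32% of open sequence, and within 200 bp of one for 85 (12.1%, 9.82 to 14.8%), against 3.89%. The 52 had a median signal of 71.9, near that of all 700. The strongest near such a gene, after that of ppm-1.A, lay 154 bp upstream of K02F2.11 (signal 930), 131 bp upstream of W08E3.5 (signal 819) and inside F26F4.14 (signal 731), this summit being 572 bp from the start of tag-340. Pseudogenes showed the reverse, with 6 summits inside one (0.857%), against 11.2% of open sequence, and 15 within 200 bp. Long intergenic noncoding RNA genes held 6 summits (0.857%), against 0.727%, among them linc-128 (signal 146) and linc-129 (signal 112). No summit lay in a piRNA gene, and 10 lay within 200 bp of one (1.43%), against 7.25% of open sequence. For microRNA genes 3 summits lay within 200 bp (0.429%), against 0.165%. They were 147 bp upstream of mir-53 (signal 86.3, with 81.6 in replicate 1 and 8.32 in replicate 2), 170 bp upstream of mir-52 (signal 42.3, with 34.1 in replicate 1 and no match in replicate 2), both of the mir-51 family, and inside mir-8209 (signal 45.7). Chromatin over transcribed loci can give signal in ChIP-seq of many factors, and its part here was not tested.

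Few intergenic peaks had a gene of the cell cycle lists as the nearest one. DREAM and synMuv genes were nearest to 5 peaks (0.714%, 0.232 to 1.66%), against 0.104% of open sequence. These were lin-13, a zinc-finger synMuv gene (signal 210, 750 bp upstream), lin-9, lin-40, an MTA-type subunit of the NuRD complex (74.6), and gei-8, a nuclear corepressor gene with 2 peaks (64.7 and 58.2). Genes of DNA replication and the G1/S transition were nearest to 3 peaks (0.429%, against 0.173%), namely the 2 of cki-1 and one of rpa-2, of the single-strand binding complex (98.0, with no match in replicate 2). The mitosis list had 1 (0.143%, against 0.129%), zyg-9, a microtubule-binding protein gene (42.7), and ribosomal protein genes had 1 (0.143%, against 0.226%), rpl-31 (48.1). Histone genes were nearest to 2 (0.286%, against 0.154%), his-72, a replication-independent H3 variant (96.3), and his-3 (50.5).

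Intestine genes were nearest to 7 peaks (1.00%, 0.403 to 2.05%, against 0.323% of open sequence), among them glo-4, hif-1, the hypoxia factor (signal 214, 1970 bp upstream), and fat-2, a fatty acid desaturase (88.8). Of the 7, 3 stood at ges-1. The strongest of these, at V:1432523-1432842, was 546 bp upstream of ges-1, with a signal of 289 (249 in replicate 1 and 42.2 in replicate 2), and the others were 1088 bp (50.5) and 2410 bp upstream (45.7). The transgene carries ges-1 promoter sequence, of unstated extent, so reads of the transgene and of the chromosome cannot be told apart at these peaks. No intergenic peak had dpl-1, efl-1, unc-119 or one of the Hox genes ceh-13, lin-39, mab-5 and egl-5 as its nearest or flanking gene. Neuron genes were nearest to 3 peaks (0.429%, against 0.384%), of which unc-116, a kinesin, was the strongest (103.8). Homeobox, nuclear receptor and other developmental factors were nearest to 20 (2.86%, 1.75 to 4.38%, against 3.07%), with nhr-88 (222), nhr-20 (214) and nhr-61 (134) at the top. The large families of the chromosome arms were rare. Chemoreceptor genes were nearest to 3 peaks (0.429%, 0.0885 to 1.25%) and to 7.38% of open sequence, genes of the F-box, MATH and BTB classes to 2 (0.286%, against 2.16%), and C-type lectins to 1 (0.143%, against 0.945%). Collagen stems were nearest to 2 (0.286%, against 0.809%), col-61 and dpy-27, and dpy-27 codes for a condensin subunit of dosage compensation and not for a collagen. These lists were described by counts alone, and no list was tested.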

How the data were processed

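The series held 2 biological replicates of 1 group, named from the labels. For builds ce10 and ce11 the authors deposited narrowPeak lists. Per the deposited file descriptions, a replicate list came from its alignment plus a control, the pooled list used the 2 alignments, and the IDR list was drawn from these 3. Aligner and caller: not given in the sources used here. Control libraries and alignments were not used here. The authors' signal per peak has no stated scale and was used only to describe, rank and split peaks. The −log10 q deposited by the authors reached a maximum shared by 2162 IDR peaks and was not used for ranking.

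Summits of ce11 were set against the Ensembl release 115 annotation and the RefSeq sequence of WBcel235, the same assembly. Ranks are over the 3726 IDR peaks. A peak matched a replicate when a summit of its list of 30000 lay within 100 bp. Shares of intergenic and promoter peaks were compared with Fisher's exact test, two-sided, with Benjamini-Hochberg adjustment over 7 shares at 0.05. Intervals are exact Clopper-Pearson 95% intervals and cover counting of peaks only. Of 283 gene symbols in the lists, 5 were not in the annotation, and family lists were made by name stem. Peaks named are the 20 strongest, the 3 strongest of each autosome, gene list and noncoding class, those with an E2F string among the 100 strongest, those beside a fixed set of genes, and those at the edge of the promoter window; the gap with 5 peaks, the longest GA run, gei-8 and fat-2 were named after their values were seen. The peaks and lists were chosen with earlier results of these data known. Alternatives were the stronger and weaker IDR peaks, each replicate alone, other promoter windows, match distances and string windows, and the ce10 list. A further one matched peaks only to as many of the strongest replicate peaks as the IDR list holds. The code was tested on simulated data. Software was numpy 2.4.6, scipy 1.17.1 and matplotlib 3.10.9 under Python 3.11.15.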

Additional observations from a re-analysis of the deposited data

How the results depend on the processing

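Of 98 values recomputed under other settings, 81 kept their side of the threshold, stayed within the interval of the reported value or, for the number of intergenic peaks, stayed within 1.5 times of it, and no difference that passed its test changed direction. Splitting the IDR list lowered the number of intergenic peaks by construction. The 1863 stronger IDR peaks held 244 intergenic peaks and the weaker ones 456, an uneven division that the split did not fix. Among the stronger ones the median distance to a start was 1298 bp and chromosome III held 27.05%, and the difference in GATA-type strings was lost (odds ratio 1.118). With string windows of 100 bp to either side that odds ratio was 1.475 and the GA repeat one 3.053. Among the weaker ones the differences in CHR strings (0.8061) and in matches to replicate 2 (0.9295) were lost. With promoters from 1000 bp upstream, which removes the nearest peaks, 492 peaks remained, the median distance was 2114 bp and 74.8% were upstream. Where the whole peak had to meet the rule it was 1660 bp. The strongest 3726 peaks of replicate 1 alone held 705 intergenic peaks and gave a GA repeat odds ratio of 2.657 (40.0 against 20.06% of promoter peaks). Those of replicate 2 alone held 671 and gave 2.121 (30.25 against 16.98%). The intergenic share in replicate 2 thus lay below the interval of the reported 40.0%. The share of peaks at ncRNA genes over that of open sequence was 5.621 for overlap alone, 3.123 within 200 bp and 2.113 within 500 bp. For pseudogenes it was 0.07641 for overlap alone and 0.3031 within 500 bp, and for piRNA genes 0 and 0.4254. With starts within 2000 bp alone, 0 of 443 peaks were nearest to a ribosomal protein gene. The causes of these moves were not tested unless given. Of the 700 peaks, 695 had a ce10 counterpart of the same chromosome, width and signal within 0.001 of its value. No paired analysis was possible because there was only 1 group. Depth per library was unknown, which limits what the absence of a match in replicate 2 can show.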
